A study of Homo sapiens with 12 samples.

Results

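The 8 genes described here encode enzymes that use isocitrate, 2-hydroxyglutarate or the NADP pair: the isocitrate dehydrogenases IDH1 and IDH2, the D-2-hydroxyglutarate dehydrogenase D2HGDH, the malic enzymes ME1, ME2 and ME3, the nicotinamide nucleotide transhydrogenase NNT, and the 6-phosphogluconate dehydrogenase PGD. They were taken by GENCODE symbol from the 60675 Ensembl identifiers of each count file, and each symbol matched 1 identifier. SUDHL6 and SUDHL16, established human lines of diffuse large B-cell lymphoma, were each sequenced as parental cells and as a derivative that had acquired resistance to venetoclax, an inhibitor of the survival protein BCL2. The derivatives came from long culture in slowly rising venetoclax, grew at 10 times the parental IC50 and were kept under the drug. For experiments, the cells of both kinds were moved to fresh media, and whether venetoclax was present when RNA was taken is not stated. Adaptation and present or recent exposure to venetoclax therefore cannot be told apart. Each of the 4 groups had 3 libraries, and no label says that the libraries of a group came from separate cultures, so p-values measure only the spread between libraries. SUDHL6 libraries were made with a NEBNext Ultra II kit and SUDHL16 libraries with an Illumina stranded total RNA kit with ribosomal depletion, on different sequencers, so line and library kit cannot be told apart. In these bulk samples, fewer cells that use a gene and less RNA per cell also cannot be told apart.

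NADPH is the reducing cofactor that cells spend on glutathione and thioredoxin recycling and on lipid and nucleotide synthesis. PGD (in the pentose phosphate pathway), IDH1 and ME1 make it in the cytosol, while IDH2, ME3 and NNT make it in mitochondria, and ME2 is a mitochondrial malic enzyme that mainly uses NAD. Isocitrate dehydrogenases also make 2-oxoglutarate, the substrate of many dioxygenases, and mutant forms of IDH1 and IDH2 are known for making D-2-hydroxyglutarate, which D2HGDH turns back into 2-oxoglutarate. None of the values below bears on mutations, protein or enzyme activity.

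Library totals were 33992784 to 40885665 counts in SUDHL6 and 4131927 to 22068221 in SUDHL16. The lowest was CE-26, a SUDHL16 parental library that stood apart, with counts in 34938 genes and 55.4% of its counts in protein-coding genes, against 84.3% or more in every other library. SUDHL16 fold changes of the 8 genes are therefore given with and without it, as are those of other genes whose call changed. The 5 B-cell markers MS4A1, CD79A, CD79B, PAX5 and BCL6 were each at 5 CPM or more in every library. The summed level of 8 markers of other cell types was 0.743 to 2.24 CPM in SUDHL6, 12.5 to 26.7 CPM in SUDHL16 resistant libraries and 17.3 to 166 CPM in SUDHL16 parental libraries, highest in CE-26, where the haemoglobin gene HBB alone gave 148 CPM. The T-cell gene CD3E was at 1.16 to 4.48 CPM in SUDHL16 parental and 10.8 to 13.4 CPM in SUDHL16 resistant libraries, and the part of other cell types in the SUDHL16 results was not tested. Between libraries, the common biological coefficient of variation was 0.0516 in SUDHL6, 0.468 in SUDHL16 and 0.339 in SUDHL16 without CE-26.

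In SUDHL6, 3 of the 6 members that could be tested were higher in resistant cells (IDH1, IDH2 and NNT), ME2 and PGD were slightly lower, and D2HGDH did not pass the test. At any fold, 5 of 6 thus passed, beside 37.3% of all genes tested in that line. IDH2 alone reached 1.5-fold. In SUDHL16, IDH2 was the only member to pass at any fold, with a far larger rise, and the other 5 members had log2 fold changes between −0.07 and 0.38, or between −0.10 and 0.25 without CE-26. Levels are given as CPM, counts per 1000000 after scaling by trimmed means (TMM), and a gene is called when edgeR's quasi-likelihood test gives it a Benjamini-Hochberg adjusted p under 0.05 and its change is at least 1.5-fold. By that rule 1 of 6 members was called in SUDHL6, where 8.96% of the 16662 genes tested were called, and 1 of 6 in SUDHL16, where 5.30% of 15708 were. Without CE-26, 1 of 6 was called against 10.0% of 16280 genes. A share of 1 in 6 beside such backgrounds is not a result about the 6 genes as a group. ME1 and ME3 had too few counts to be tested in either line.

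**Figure D1:**
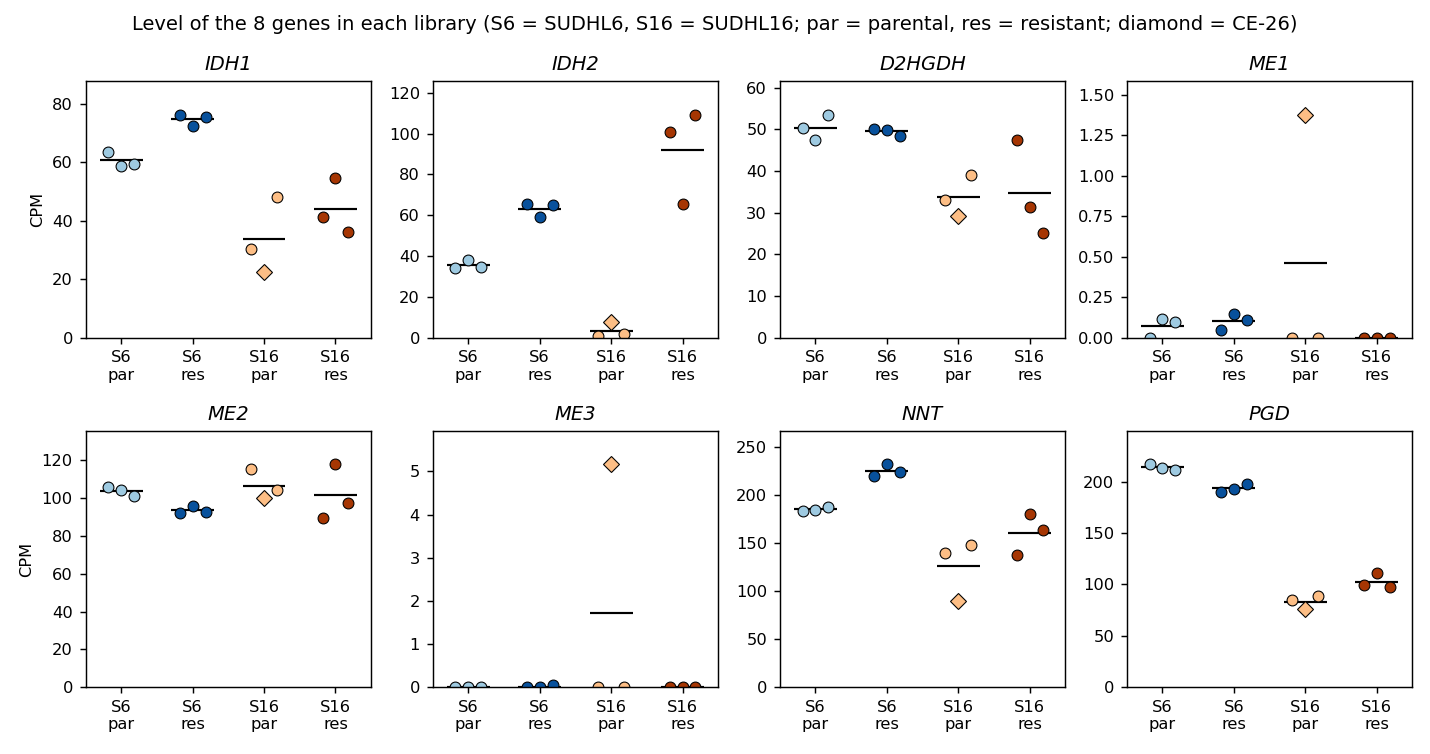
Level of each of the 8 genes in each of the 12 libraries, in CPM on linear axes from 0, with 1 point per library, the group mean as a line and CE-26 as a diamond. IDH2 goes from 0.827 to 7.58 CPM in SUDHL16 parental libraries to 65.5 to 109 CPM in resistant ones, while ME1 and ME3 lie near 0 apart from CE-26.

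IDH2 (ENSG00000182054) encodes the mitochondrial NADP-dependent isocitrate dehydrogenase and IDH1 (ENSG00000138413) its cytosolic and peroxisomal counterpart. The study singled out IDH2 from these same libraries, so its direction here is not independent evidence. In SUDHL6, IDH2 was at 33.9, 37.9 and 34.7 CPM in the parental libraries and at 65.5, 59.2 and 65.1 CPM in the resistant ones. The groups did not overlap, with a ratio of means of 1.78 and a log2 change (the log2 of the fold change, resistant over parental) of 0.83 (standard error, SE, 0.05, edgeR's adjusted p = 5.29e-08). In SUDHL16 it was at 0.827, 7.58 and 1.61 CPM in parental and at 101, 65.5 and 109 CPM in resistant libraries. The parental values rest on 15, 22 and 26 counts, and the highest of them is that of CE-26. The log2 fold change was 5.22 (SE 0.74, edgeR's adjusted p = 0.00574), or 6.25 (SE 0.43, edgeR's adjusted p = 1.58e-04) without CE-26, and the ratio of means was 27.5 with that library and 75.3 without it.

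IDH1 was at 63.4, 58.8 and 59.5 CPM in SUDHL6 parental libraries and at 76.3, 72.4 and 75.3 CPM in resistant ones. Every resistant library was above every parental library, with a log2 change of 0.30 (SE 0.03, edgeR's adjusted p = 2.08e-05), under the 1.5-fold limit. Its SUDHL16 levels were 30.3, 22.4 and 48.1 CPM against 41.4, 54.4 and 36.2 CPM. These groups overlapped, and the log2 change of 0.38 (SE 0.32) did not pass (edgeR's adjusted p = 0.593); without CE-26 it was 0.18. Both NADP-dependent isocitrate dehydrogenase genes thus rose in SUDHL6, and IDH2 alone passed the test in SUDHL16.

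The transcription starts of the 3 members that rose in SUDHL6 are shown by the 250 bases before the start of their GENCODE 44 canonical transcript in GRCh38, read 5′ to 3′ on the strand of the gene, with every GGGCGG or its reverse complement CCGCCC (GC box) in capitals. IDH2 is chr15:90102469-90102718 (minus strand), IDH1 is chr2:208255072-208255321 (minus strand) and NNT is chr5:43602930-43603179 (plus strand).
IDH2: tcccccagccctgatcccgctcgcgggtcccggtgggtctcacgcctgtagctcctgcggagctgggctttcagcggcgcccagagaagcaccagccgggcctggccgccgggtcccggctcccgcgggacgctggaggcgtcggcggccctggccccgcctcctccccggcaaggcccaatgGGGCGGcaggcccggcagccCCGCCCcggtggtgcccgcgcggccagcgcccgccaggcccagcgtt
IDH1: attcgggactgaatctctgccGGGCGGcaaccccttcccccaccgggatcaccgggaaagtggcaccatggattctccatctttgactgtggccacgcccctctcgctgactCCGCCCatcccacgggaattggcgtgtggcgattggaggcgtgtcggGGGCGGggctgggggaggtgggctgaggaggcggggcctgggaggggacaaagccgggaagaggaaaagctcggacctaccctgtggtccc
NNT: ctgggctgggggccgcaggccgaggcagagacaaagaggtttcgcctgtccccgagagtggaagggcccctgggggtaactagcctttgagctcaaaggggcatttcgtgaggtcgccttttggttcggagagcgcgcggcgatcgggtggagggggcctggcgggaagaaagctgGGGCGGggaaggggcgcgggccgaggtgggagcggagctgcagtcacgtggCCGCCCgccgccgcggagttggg

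The IDH2 and NNT windows held 2 GC boxes each and the IDH1 window 3, and ME3 was the only member with none. On both strands, 59.0% of the 20032 protein-coding windows of this length held at least 1. The CCAAT box occurred in IDH2 and IDH1 and not in NNT (34.3% of all windows), the E-box CACGTG in NNT and not in the other two (7.87%), and TGANNNNGC, the core of the antioxidant response element, in all 3 (35.2%). Motifs were counted separately and could overlap. CpG dinucleotides numbered 30 in IDH2, 17 in IDH1 and 24 in NNT, against a median of 18. These are letter matches and show no binding. All 3 windows also meet a transcript of the opposite strand: IDH2-DT starts inside the IDH2 window and IDH1-AS1 inside that of IDH1, and NNT-AS1 spans the whole NNT window. IDH2-DT had 0 counts in every library except CE-26, with 2, and IDH1-AS1 had 20 or fewer counts in each library. NNT-AS1 was at 37.6 to 55.4 CPM and shares exon bases with NNT, so reads of NNT and NNT-AS1 cannot be told apart where the counting ignored strand, which is not given in the sources used here.

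D2HGDH (ENSG00000180902) encodes the mitochondrial enzyme that oxidises D-2-hydroxyglutarate to 2-oxoglutarate. In SUDHL6 it was at 50.3, 47.4 and 53.6 CPM in parental and at 50.2, 49.9 and 48.4 CPM in resistant libraries. The groups overlapped, and the log2 fold change was −0.03 (SE 0.04, edgeR's adjusted p = 0.649). SUDHL16 parental and resistant libraries held 33.1, 29.3 and 39.0 CPM against 47.5, 31.3 and 25.2 CPM, a log2 change of 0.03 (SE 0.29, edgeR's adjusted p = 0.969), or −0.04 without CE-26. Here the resistant libraries spread more widely than the parental ones, and the sign of this value changed under other scalings as well.

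ME2 (ENSG00000082212) was the only malic enzyme gene with substantial counts. In SUDHL6 it was at 106, 104 and 101 CPM in parental and at 92.0, 95.9 and 92.4 CPM in resistant libraries. All resistant values were below all parental ones, with a log2 change of −0.15 (SE 0.03, edgeR's adjusted p = 0.00146), a drop that passed the test but is under 1.5-fold. The SUDHL16 values were 115, 99.9 and 104 CPM against 89.2, 118 and 97.2 CPM, with overlapping groups and a log2 change of −0.07 (SE 0.22, edgeR's adjusted p = 0.909), or −0.10 without CE-26.

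ME1 (ENSG00000065833) encodes the cytosolic and ME3 (ENSG00000151376) the mitochondrial NADP-dependent malic enzyme. ME1 had 0 to 6 counts in each SUDHL6 library, 4 counts in CE-26 and 0 in the other 5 SUDHL16 libraries. ME3 had 0 counts in every library except CE-12, with 2, and CE-26, with 15 (5.17 CPM). A count of 0 allows up to 3 counts, which is 0.0737 to 0.0885 CPM in SUDHL6 libraries and 0.128 to 0.201 CPM in SUDHL16 libraries other than CE-26, from counting error alone. Outside CE-26, NADP-linked malic enzyme transcripts were thus at or near the limit of detection in both lines, in parental and resistant cells, and no fold change is given for them.

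NNT (ENSG00000112992) encodes the inner-membrane transhydrogenase that uses the proton gradient to make mitochondrial NADPH from NADH. In SUDHL6 it was at 184, 184 and 188 CPM in parental and at 219, 232 and 224 CPM in resistant libraries. The groups did not overlap, and the log2 fold change was 0.28 (SE 0.02, edgeR's adjusted p = 1.84e-06), close to that of IDH1. For SUDHL16 the levels were 140, 90.2 and 149 CPM against 138, 180 and 163 CPM. CE-26 was the lowest library, the groups overlapped with and without it, and the log2 change of 0.34 (SE 0.27, edgeR's adjusted p = 0.560) fell to 0.16 without it.

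PGD (ENSG00000142657), the second NADPH-producing step of the pentose phosphate pathway, went the other way in SUDHL6, from 217, 213 and 212 CPM in parental to 190, 192 and 197 CPM in resistant libraries. The log2 fold change was −0.15 (SE 0.02, edgeR's adjusted p = 2.48e-04), with every resistant library below every parental one. In SUDHL16 it was at 85.4, 76.1 and 88.3 CPM in parental and at 99.4, 111 and 97.3 CPM in resistant libraries. All 3 resistant values lay above all parental values, with and without CE-26, but the log2 change of 0.30 (SE 0.21) did not pass (edgeR's adjusted p = 0.499), nor did the 0.25 without CE-26 (edgeR's adjusted p = 0.523). Groups did not overlap for 5 of the 6 tested members in SUDHL6, where this held for 47.9% of all tested genes, and for 2 of 6 in SUDHL16 (IDH2 and PGD), where it held for 26.6% of all tested genes, or 42.2% without CE-26.

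**Figure D2:**
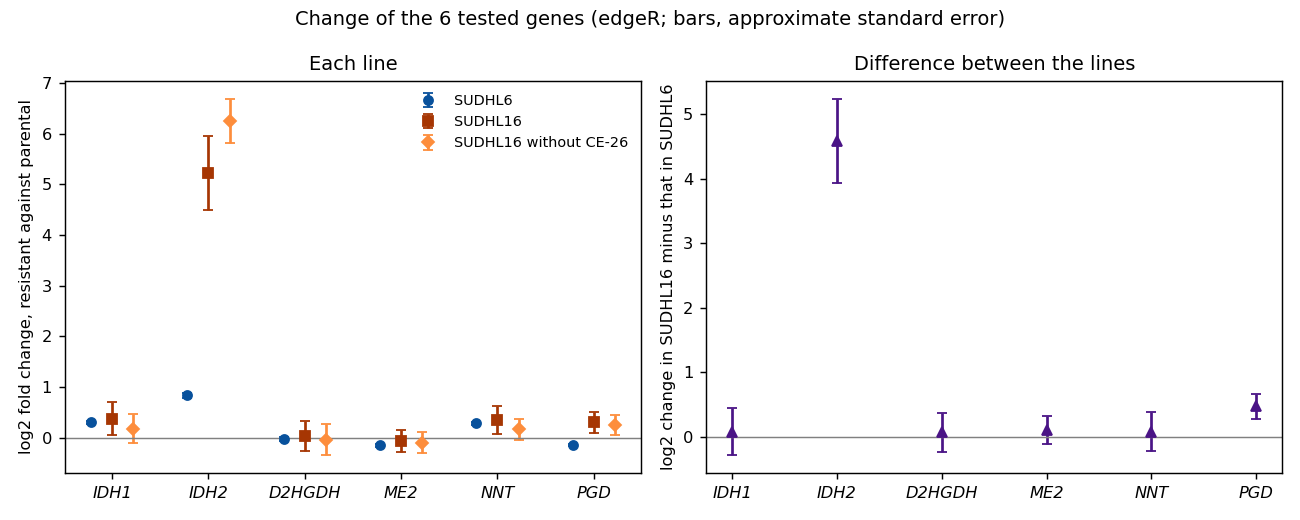
Log2 fold change of the 6 tested genes, resistant against parental, with approximate standard errors: SUDHL6, SUDHL16 and SUDHL16 without CE-26 in the left panel, and the change in SUDHL16 minus that in SUDHL6 in the right panel. IDH2 stands at 0.83, 5.22 and 6.25 in the left panel, and the other SUDHL16 values lie near 0 with wider errors than in SUDHL6.

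A line-by-resistance interaction, fitted with edgeR to all 12 libraries together, asked whether the change differed between the lines. This fit shares 1 estimate of each gene's spread over both lines, although SUDHL16 libraries varied far more. A fit of all 12 libraries called 14.6% of genes in SUDHL16, against 5.30% in that line alone. Interaction p-values that rest on changes in SUDHL16 may therefore be too small. By the interaction test, 7.16% of 19621 genes passed at an adjusted p under 0.05. Of the 6 members only IDH2 passed, its change in SUDHL16 larger than in SUDHL6 by 4.58 (log2) (SE 0.65, edgeR's adjusted p = 0.00131), or by 5.38 without CE-26. PGD was lower in all SUDHL6 resistant libraries and higher in all those of SUDHL16, a difference of 0.47 (SE 0.20) with an unadjusted p of 0.0331 and an edgeR's adjusted p = 0.183. DESeq2 called this PGD difference (adjusted p = 0.00408), and without CE-26 it was 0.35 (edgeR's adjusted p = 0.0924). For IDH1, D2HGDH, ME2 and NNT the differences were 0.07 to 0.11, with standard errors of 0.21 to 0.36 and edgeR adjusted p of 0.849 or more, so differences of a size comparable to the SUDHL6 changes themselves could not be seen. Without CE-26 these 4 were −0.16, −0.07, 0.01 and −0.15, and none passed.

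Levels of different genes were compared as CPM per kilobase of the canonical transcript. PGD was the highest of the 8 in each group, at 94.3 ± 1.18 in SUDHL6 parental, 85.2 ± 1.67 in SUDHL6 resistant, 36.7 ± 2.81 in SUDHL16 parental and 45.2 ± 3.27 CPM per kb in SUDHL16 resistant cells (SD, n = 3 libraries). In SUDHL6 parental cells it was followed by NNT (28.9), IDH1 (26.1), D2HGDH (19.7), IDH2 (13.4) and ME2 (11.5 CPM per kb), with no overlap between neighbours in this order. In SUDHL6 resistant cells IDH2 lay above D2HGDH, at 23.8 ± 1.32 against 19.3 ± 0.369 CPM per kb, again without overlap. This order depends on the length used: divided by the union of annotated exons, IDH2 was already above D2HGDH in SUDHL6 parental cells, at 12.7 against 9.60 CPM per kb, and in resistant cells it came second after PGD, at 22.7 CPM per kb. In SUDHL16 parental cells the order from NNT (19.7) through IDH1 (14.5) and D2HGDH (13.2) to ME2 (11.8) held neighbours that overlapped, and IDH2 lay below all of these at 1.26 ± 1.39 CPM per kb, or 0.459 without CE-26. In SUDHL16 resistant cells IDH2 came second at 34.6 ± 8.75 CPM per kb, and its range overlapped that of NNT (25.01 ± 3.32). Dividing by the exon union placed IDH2 first in this group, at 33.0 against 30.8 CPM per kb for PGD.

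Set against the summed level of the 7 dehydrogenase, malic enzyme and transhydrogenase genes (all members but D2HGDH), IDH2 made up 7.67% ± 0.487 in SUDHL6 parental and 12.7% ± 0.641 in SUDHL6 resistant libraries (SD, n = 3). In SUDHL16 it went from 1.62% ± 1.94, with single libraries from 0.364% to 3.86% and a mean of 0.502% without CE-26, to 25.7% ± 6.84, with libraries from 17.8% to 30.3%. The groups did not overlap in either line. Among the 3 members that make NADPH in mitochondria, IDH2, ME3 and NNT, the share of IDH2 went from 31.6% to 40.4% in SUDHL6. In SUDHL16 it went from 6.28% (1.98% without CE-26) to 57.5%. These shares leave out enzymes that are not members. The folate-linked mitochondrial dehydrogenase MTHFD2, for instance, was at 64.6 and 59.1 CPM per kb in SUDHL6 parental and resistant cells. In those of SUDHL16 it was at 43.1 (51.7 without CE-26) and 97.7 CPM per kb. The share of PGD was lower in resistant cells of both lines, 45.7% against 54.1% in SUDHL6 and 33.5% against 43.5% (42.5% without CE-26) in SUDHL16, although PGD itself was at a higher CPM in SUDHL16 resistant libraries. The sum of the other 6 genes was 161 ± 2.21 and 163 ± 1.85 CPM per kb in SUDHL6 parental and resistant cells, and 83.5 ± 11.8 (89.8 without CE-26) and 100 ± 11.4 CPM per kb in SUDHL16. The mean ratio of IDH2 to IDH1 per kilobase was 0.512 and 0.739 in SUDHL6 parental and resistant libraries, and 0.116 (0.0265 without CE-26) and 1.94 in those of SUDHL16. All these shares, sums and ratios use the canonical transcript length, and their size depends on it. Divided by the exon union, IDH2 was at 12.7 and NNT at 15.4 CPM per kb in SUDHL6 parental cells. In SUDHL6 resistant cells IDH2 then lay above NNT, at 22.7 against 18.7 CPM per kb.

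**Figure D3:**
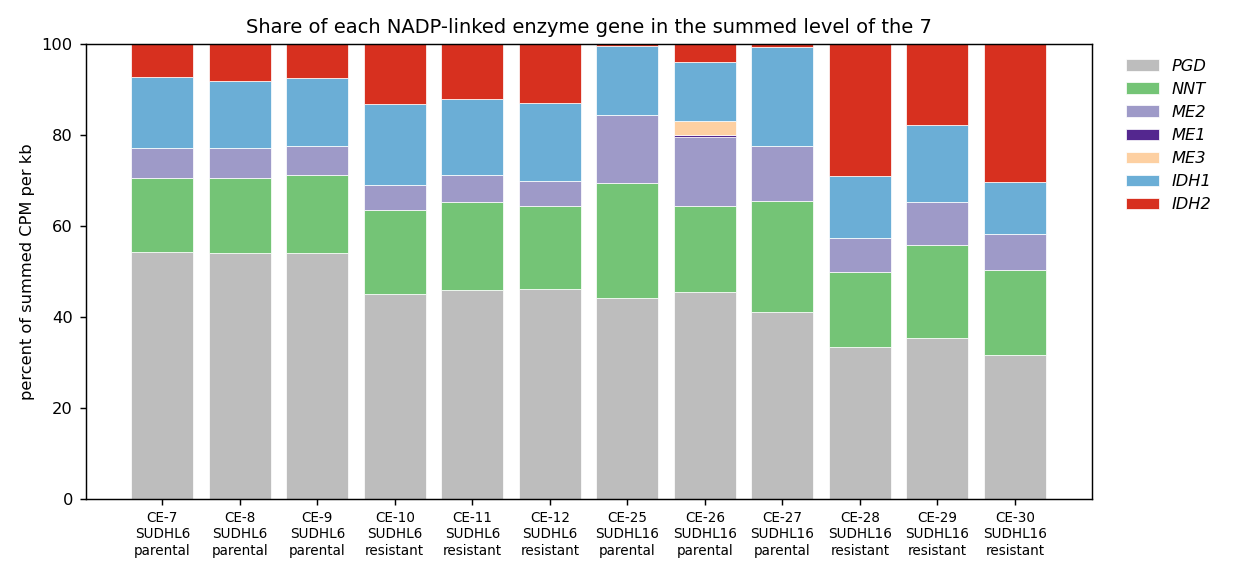
Percent of the summed CPM per kilobase of canonical transcript of 7 genes (PGD, NNT, ME2, ME1, ME3, IDH1, IDH2) held by each gene, as 1 stacked bar for each of the 12 libraries. The IDH2 segment is 7.25% to 8.20% in SUDHL6 parental, 12.03% to 13.3% in SUDHL6 resistant, 0.364% to 3.86% in SUDHL16 parental and 17.8% to 30.3% in SUDHL16 resistant libraries.

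The log2 ratio of IDH2 to each of the 5 other members that could be tested, taken within a library on CPM with 0.5 added, was compared between resistant and parental libraries. ME1 and ME3 are left out, since a ratio to a count near 0 is set by the 0.5 added. For all 5, the ratio was higher in every resistant library than in every parental one, in both lines. All 10 ratios share IDH2, which the study singled out from these same libraries. They therefore restate its rise against each other member and are not separate evidence for it. The smallest difference was that to IDH1, at 0.53 in SUDHL6 and 4.56 in SUDHL16, and the largest that to ME2, at 0.97 in SUDHL6 and 5.07 in SUDHL16. With CE-26 left out, the SUDHL16 differences were 5.57 for IDH1 and 5.87 for ME2, and with 1 CPM added to all 6 libraries they were 4.29 and 4.79. The two-sided exact permutation p was 0.1 for each of the 10 ratios (0.1 after Benjamini-Hochberg adjustment), the smallest that 3 against 3 libraries allow, so this design cannot reach 0.05.

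Of the 45 genes in 7 lists of neighbouring pathways, 42 could be tested in SUDHL6 and 41 in SUDHL16. In SUDHL6, 3 were called, IDH3G lower and NADK2 and BLVRB higher (8.96% of all tested genes were called), and 17 passed at any fold, 8 higher and 9 lower (37.3% of all tested genes). The median log2 change of the 42 was −0.01, against 0.00 for all tested genes. In SUDHL16, 2 were called, IDH3A and IDH3B, both higher (5.30% of all tested genes), with a median of 0.22 against −0.02 for all tested genes. Without CE-26, 8 were called, 7 higher and 1 lower, against 10.0% of all tested genes. The counts depended on the libraries used. In SUDHL16, 0 were called when any other library was left out, where 1.67% to 2.70% of all tested genes were called. In SUDHL6 the 3 became 0 without CE-12 (8.32% of all tested genes) and 1 without CE-7 (7.98%). The interaction passed for 3 of 43 tested list genes, where 7.16% of all 19621 tested genes passed. Without CE-26 it passed for 14, where 14.0% of all 20959 tested genes passed.

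Of the 6 pentose phosphate genes beside PGD, TKT, the transketolase of the pathway, was lower in SUDHL6, with a log2 change of −0.18 (edgeR's adjusted p = 1.49e-05), and the other 5 did not pass. In SUDHL16 none of the 6 was called by edgeR, and 2 had an unadjusted p under 0.05 (3002 of all 15708 tested genes did), TALDO1 lower and H6PD higher. TALDO1 was at 138 to 148 CPM in parental and 66.7 to 94.0 CPM in resistant libraries, without overlap. Its log2 change was −0.75 (edgeR's adjusted p = 0.121), or −0.71 without CE-26 (adjusted p = 0.0964). H6PD, which carries out the first steps of the pathway inside the endoplasmic reticulum, went from 37.8, 64.4 and 45.7 CPM in parental to 101, 88.8 and 75.0 CPM in resistant libraries (log2 change 0.85, edgeR's adjusted p = 0.120). CE-26 held the highest parental value, and without it H6PD was called, at 1.09 (edgeR's adjusted p = 0.0226). By the interaction test, which shares 1 spread over both lines, the change of H6PD differed between the lines by 0.98 (edgeR's adjusted p = 0.0204).

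The NAD kinases make NADP itself, NADK in the cytosol and NADK2 in mitochondria. NADK2 went from 8.99, 10.4 and 10.1 CPM to 13.99, 15.3 and 16.2 CPM in SUDHL6, a log2 change of 0.63 (SE 0.08, edgeR's adjusted p = 6.16e-05). In SUDHL16 its level was 81.7 to 88.6 CPM in parental and 96.1 to 150 CPM in resistant libraries, without overlap, and the log2 change of 0.51 did not pass (edgeR's adjusted p = 0.305; 0.53 without CE-26, adjusted p = 0.240). NADK gave 0.00 and −0.07. The difference between the lines for NADK2 was −0.09 (edgeR's adjusted p = 0.905).

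The folate-linked dehydrogenases MTHFD1, MTHFD2 and MTHFD2L, which oxidise one-carbon units bound to folate, gave no call. MTHFD1 and MTHFD2 were slightly lower in SUDHL6, with log2 changes of −0.05 (edgeR's adjusted p = 0.0450) and −0.13 (edgeR's adjusted p = 4.93e-04). In SUDHL16 MTHFD2, the mitochondrial enzyme, was at 114 to 234 CPM in parental and 343 to 557 CPM in resistant libraries, without overlap (log2 change 1.18, edgeR's adjusted p = 0.109; 0.93 without CE-26, adjusted p = 0.0592). ALDH1L1 was not tested in either line and ALDH1L2 only in SUDHL6.

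Among the 5 genes that handle 2-hydroxyglutarate, none was called in either line. PHGDH, the first enzyme of serine synthesis, which can also form D-2-hydroxyglutarate, was higher in SUDHL6, at 269 to 281 CPM in parental and 321 to 332 CPM in resistant libraries (log2 change 0.25, edgeR's adjusted p = 1.91e-06). In SUDHL16 it was at 112 to 159 CPM and 262 to 311 CPM (log2 change 1.006, edgeR's adjusted p = 0.0635), and without CE-26 it was called, at 0.87 (edgeR's adjusted p = 0.0346). ETFA, a subunit of the flavoprotein that takes electrons from D2HGDH, was lower in SUDHL6, with a log2 change of −0.16 (edgeR's adjusted p = 2.58e-04). In SUDHL16 its value was 0.62 and did not pass. ETFA passed without CE-26, at 1.14 (edgeR's adjusted p = 0.0471).

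In the list of 10 genes around isocitrate and 2-oxoglutarate, the genes called with all libraries were subunits of IDH3, the NAD-dependent isocitrate dehydrogenase of the citric acid cycle. Chromosomal neighbours were examined only for the members, so a regional shift around these or other list genes was not tested. IDH3G was at 88.9 to 91.4 CPM in SUDHL6 parental and 58.0 to 60.2 CPM in resistant libraries (log2 change −0.60, edgeR's adjusted p = 6.30e-09), opposite in direction to IDH1 and IDH2. In SUDHL16, IDH3A and IDH3B had log2 changes of 1.03 and 1.34 (edgeR's adjusted p = 0.0318 and 0.0208), below the 5.22 of IDH2, and 0.95 and 1.17 without CE-26. SLC25A11, the mitochondrial carrier of 2-oxoglutarate, was at 8.95 to 28.9 CPM in SUDHL16 parental libraries, lowest in CE-26, and at 57.5 to 73.7 CPM in resistant ones. Its log2 change of 1.52 did not pass (edgeR's adjusted p = 0.0648), and without CE-26 it was called, at 1.202 (edgeR's adjusted p = 0.0135). The changes of IDH3A and IDH3B exceeded those in SUDHL6 by 1.10 and 1.36 (edgeR's adjusted p = 0.00944 and 0.0120). CS, the citrate synthase of the same cycle, was higher in SUDHL6 by a log2 change of 0.08 (edgeR's adjusted p = 0.00505). Of the 5 redox enzymes that spend NADPH, BLVRB (biliverdin reductase B) was higher in SUDHL6, from 18.3 to 19.4 CPM in parental to 26.8 to 29.7 CPM in resistant libraries (log2 change 0.59, edgeR's adjusted p = 5.96e-06). TXNRD1 (thioredoxin reductase) was higher in SUDHL6 at 0.10 (edgeR's adjusted p = 0.00493), and in SUDHL16 it was at −0.84 (edgeR's adjusted p = 0.202), and called lower without CE-26, at −1.04 (edgeR's adjusted p = 0.0402).

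Of 12 dioxygenases that use 2-oxoglutarate, 10 could be tested in SUDHL6 and 11 in SUDHL16, and none of these was called with all libraries. In SUDHL6 the prolyl hydroxylase EGLN2 and the DNA demethylase TET3 were lower, with log2 changes of −0.20 (edgeR's adjusted p = 0.0173) and −0.24 (edgeR's adjusted p = 9.63e-04), and the histone demethylase KDM4C was higher, at 0.20 (edgeR's adjusted p = 4.00e-04). The list median was −0.04 in SUDHL6. In SUDHL16 it was 0.67, with 9 of 11 tested genes higher (49.1% of all tested genes were), 6 of 11 without CE-26, and 3 at an unadjusted edgeR p under 0.05 (3002 of all 15708 tested genes were). The prolyl hydroxylase EGLN1, at a log2 change of 0.67 in SUDHL16 (edgeR's adjusted p = 0.291), was called higher without CE-26, at 0.98 (edgeR's adjusted p = 0.0491).

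**Figure D4:**
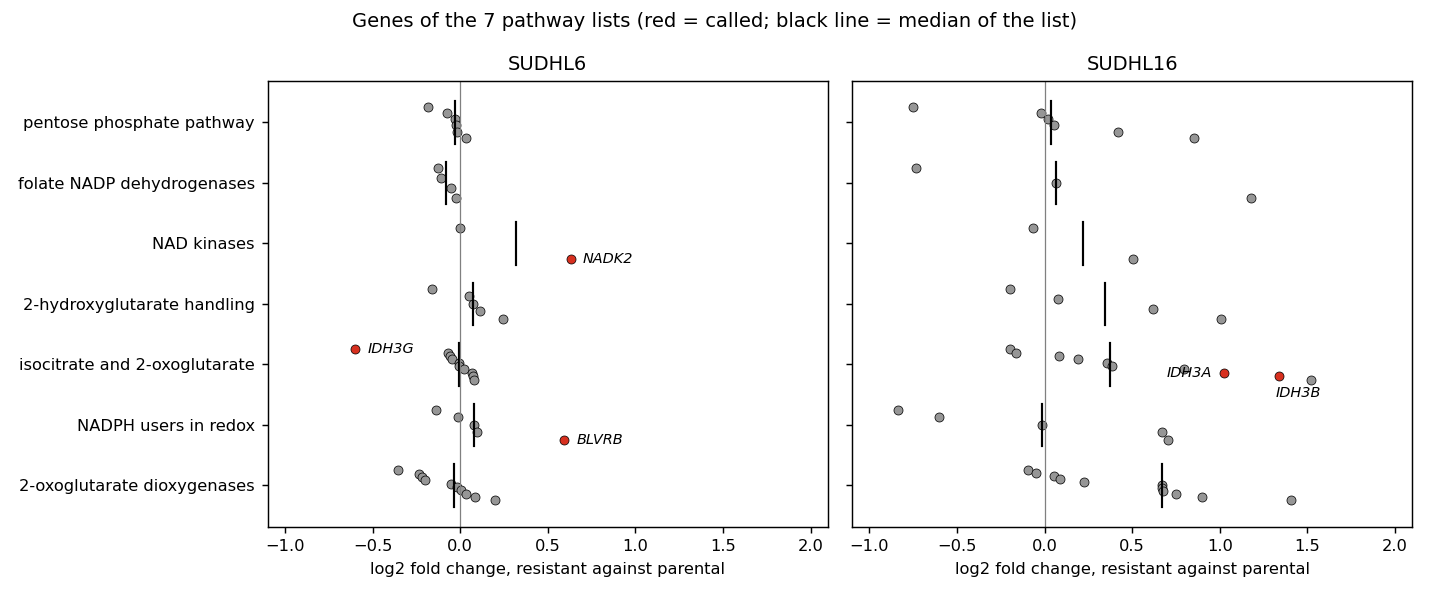
Log2 fold change, resistant against parental, of each tested gene of the 7 pathway lists in SUDHL6 (42 genes) and SUDHL16 (41 genes), with called genes in red and named and the median of each list as a black line. SUDHL6 values lie closer to 0, and the called genes are NADK2, IDH3G and BLVRB in SUDHL6 and IDH3A and IDH3B in SUDHL16.

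The surroundings of the members differed. Of 23 other tested protein-coding genes within 1 Mb of IDH2, 21 were higher in SUDHL16 resistant cells (49.1% of all tested genes were). Of the 23, 11 were called higher (3.20% of all tested genes were). The median log2 change of the neighbours was 1.32, or 1.46 without CE-26. IDH2 itself, at 5.22, was above all 23, whose highest value was 3.02. In SUDHL6 the 25 neighbours of IDH2 had a median of 0.01, while IDH2 was at 0.83. No other member had a neighbourhood median beyond 0.24 in SUDHL16, although that of the 6 genes around ME1 was −0.35 without CE-26. In SUDHL6, ME2 had the lowest median, −0.23, with 6 of 8 neighbours lower and 2 called lower (4.65% of all tested genes), and within 5 Mb 25 of 29 neighbours were lower, with a median of −0.30; the −0.15 of ME2 lies within this range. IDH1 and NNT, both higher in SUDHL6, had neighbours with medians of −0.12 and −0.03. The part of these shifts in the members' values was not tested.

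**Figure D5:**
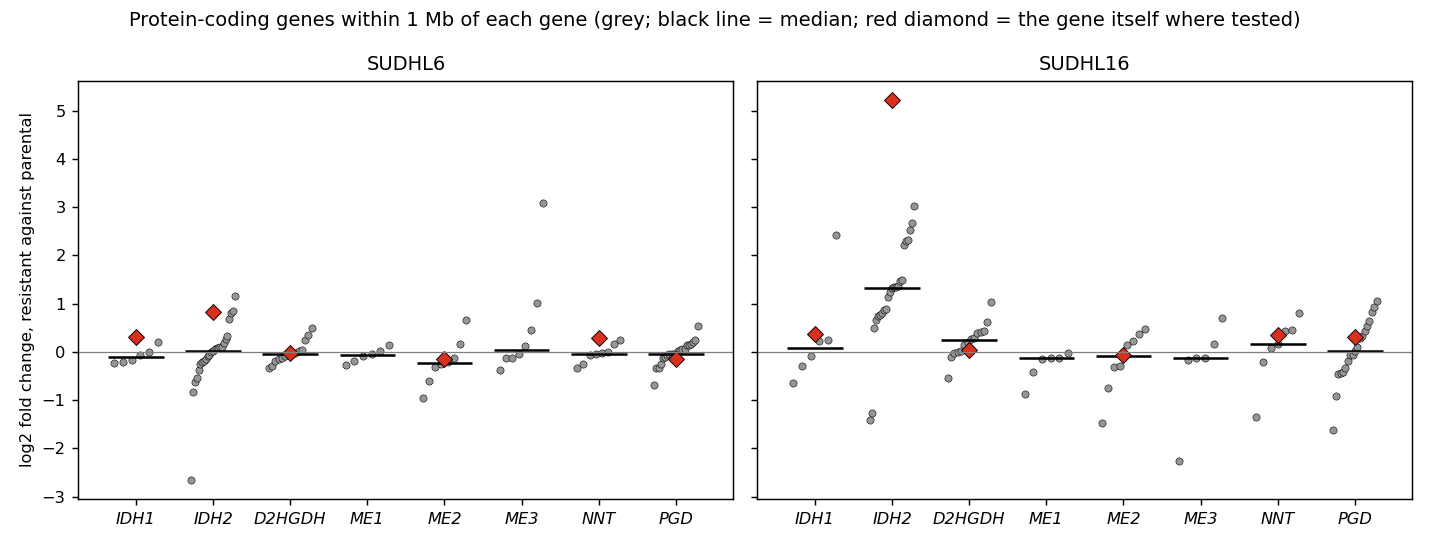
Log2 fold change, resistant against parental, of the tested protein-coding genes whose start lies within 1 Mb of each of the 8 genes (grey), their median (black line) and the gene itself where tested (red diamond), in SUDHL6 and SUDHL16. Around IDH2 in SUDHL16 the median is 1.32 and IDH2 lies above every neighbour at 5.22, and the other SUDHL16 medians lie between −0.14 and 0.24.

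Over the 12 libraries, with log2 CPM centred within each line, the genes most like IDH2 among 8754 compared were ZNF710 (Pearson r = 0.991), RAB33A (0.990), UNC45A (0.988), CTSH (0.988) and CLK3 (0.986), and r stayed at 0.989 or above for all 5 without CE-26. These values are a description: the libraries fall into parental and resistant groups, so the difference between these enters r, and libraries of a line share a kit. ZNF710, UNC45A, CTSH and CLK3 lie on chromosome 15 as IDH2 does, ZNF710 directly beside it, and RAB33A lies on the X chromosome. Their log2 fold changes were 0.34, 0.30, 0.09, 0.33 and 0.14 in SUDHL6 and 2.30, 3.75, 1.32, 1.94 and 0.79 in SUDHL16, in the order named above, each smaller than that of IDH2 in the same line. In the group called higher in both lines, IDH2 was 1 of 37 of the 13576 genes tested in both (0.273%).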

How the data were processed

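The deposited files, 1 for each of the 12 libraries, hold counts per Ensembl identifier. The authors' processing notes name Trim Galore, HISAT2, StringTie and edgeR with GRCh38; the counting step, its annotation and its strand setting are not given in the sources used here. Identifiers were named with GENCODE 44, which held 56558 of the 60675. From the counts, edgeR 4.0.16 was run in R 4.3.3 for each line alone (filterByExpr, TMM, quasi-likelihood test, two-sided, Benjamini-Hochberg over all genes tested), with an interaction in a fit of all 12 libraries. Standard errors were taken as the log2 fold change over the square root of F and are approximate. Log2 ratios within a library used CPM with 0.5 added and an exact permutation test; those to ME1 and ME3 were computed but are not reported, for lack of counts. The edgeR step was also run on simulated counts. These were drawn with the spread fitted to these data and modelled no outlying library, so they do not test the effect of CE-26. Alternatives were DESeq2 1.42.0, limma 3.58.1 (voom with sample weights), other scalings, no filter, protein-coding genes only, a fit of all libraries, and each library left out. The members and pathway lists were chosen with earlier results of these data known. Named from the lists are each gene called in either line and up to 3 genes per list with the smallest adjusted p. A few genes of the pathway and marker lists are not reported here and were left out of the counts over the lists, though not of the fits. The 5 genes most like IDH2 by Pearson r needed a mean of 5 CPM in both resistant groups. Depth was 4131927 to 40885665 counts per library; limits from counts of 0 cover counting error only. No pair of libraries held identical counts.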

Additional observations from a re-analysis of the deposited data

Results flagged for a closer look

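For 4 genes the change differed between the lines by the interaction test (edgeR adjusted p under 0.05): IDH2, with a log2 change in SUDHL16 that exceeded that in SUDHL6 by 4.58 (adjusted p = 0.00131), IDH3A by 1.10 (adjusted p = 0.00944), IDH3B by 1.36 (adjusted p = 0.0120) and H6PD by 0.98 (adjusted p = 0.0204). They were 1 of 6 tested members and 3 of 43 tested list genes, where 7.16% of all 19621 tested genes passed. Such counts are not a result about these genes as a group. For 3 other genes, every resistant library was below every parental one in SUDHL6 and above it in SUDHL16, but the test of the difference did not pass: PGD by 0.47 (edgeR adjusted p = 0.183), MTHFD2 by 1.32 (adjusted p = 0.0747) and OGDH by 0.88 (adjusted p = 0.121). Groups did not overlap for 47.9% of all tested genes in SUDHL6 and 26.6% in SUDHL16. The share of all genes with opposite groups is not given, so the number of such genes here cannot be read as a result. Without CE-26 the difference was 0.35 for PGD (edgeR adjusted p = 0.0924), and it passed for MTHFD2 at 1.01 (adjusted p = 0.0128) and for OGDH at 0.62 (adjusted p = 0.00732), where 14.0% of all tested genes passed. Line and library kit cannot be told apart in any of these, and the interaction test shares 1 spread over both lines, so its p-values may be too small for changes in SUDHL16. No group had more than 3 libraries, so no test for a single outlying value was run on any gene; CE-26 was set apart by its total and its share of protein-coding counts.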

How the results depend on the processing

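IDH2 was called in SUDHL16 under all 13 alternatives, with log2 fold changes of 4.59 to 6.25, and in SUDHL6 under 12 of 13. The exception was a single fit of all 12 libraries, where its log2 fold change was 0.83 with an edgeR adjusted p of 0.959 (range over the alternatives 2.90e-48 to 0.959). In that fit 0 members and 0 pathway genes were called in SUDHL6, where 0.714% of all 19621 tested genes were called. IDH1, NNT, ME2 and PGD, which passed at any fold in SUDHL6 under the other 12 alternatives, did not pass in it either (edgeR adjusted p of 1 for each); that fit shares the spread of SUDHL16 with SUDHL6. Pathway genes called in SUDHL6 numbered 0 to 3 with each library left out (0 without CE-12, 1 without CE-7), where 7.98% to 8.67% of all tested genes were called. In SUDHL16 they numbered 7 with DESeq2 (11.3% of all tested genes were called), 0 with library totals (5.29%) and 4 with protein-coding genes only (8.01%). They numbered 12 with limma voom (16.9%), 12 in the fit of all libraries (14.6%), and 0 to 8 with each library left out (1.67% to 10.0%). The cause was not tested. DESeq2 called 2 members for the difference between the lines, IDH2 and PGD, where 15.1% of all tested genes were called. Values near 0 changed sign. In SUDHL16, D2HGDH was −0.059 with upper-quartile scaling, −0.017 with protein-coding genes and −0.063 with voom, and ME2 was 0.055 with library totals and 0.045 without a filter. For the difference between the lines, upper-quartile scaling gave −0.045 for IDH1, −0.058 for D2HGDH, −0.041 for ME2 and −0.049 for NNT, and voom gave −0.11, −0.084 and −0.13 for IDH1, D2HGDH and NNT. With each library left out, D2HGDH ranged from −0.069 to 0.018 in SUDHL6 and −0.24 to 0.22 in SUDHL16, ME2 from −0.19 to 0.035 in SUDHL16, and the differences of IDH1 from −0.16 to 0.49, D2HGDH from −0.17 to 0.27 and NNT from −0.15 to 0.27. Upper-quartile scaling moved the median of all genes in SUDHL16 to −0.11, library totals to 0.11, and no filter to −1.18. Neighbours within 5 Mb in SUDHL6 had medians of −0.023 for IDH1, −0.098 for D2HGDH, −0.30 for ME2 and −0.040 for ME3. The 10 IDH2 ratios kept their direction with 1 CPM added. In all, 408 recomputed values kept their direction and their side of the threshold, or moved by less than the spread between libraries, 22 changed sign, 20 counts or values moved further, 5 lost and 1 gained the threshold. No paired analysis was possible because the labels carry no replicate numbers. With 15 to 26 IDH2 counts in SUDHL16 parental libraries, the size of its fold change is set by few reads.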
